A study of Mus musculus with 16 samples.

Results

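The 9 genes described here write, remove or read methylation on DNA. They are the methyltransferases Dnmt1, Dnmt3a and Dnmt3b, the dioxygenases Tet1, Tet2 and Tet3, the glycosylase Tdg and the methyl-binding proteins Mbd1 and Mbd2. They were chosen by symbol from the 35328 genes counted by RNA-Seq, and all 9 were among the 17830 genes that passed the filter on low counts. RNA came from the dorsal hippocampus of 16 male C57Bl6/J mice, with 1 library per mouse. Treatment began at 8 to 9 weeks of age and ran for 2 weeks, with plain water or with caffeine at 0.3 g/L in the drinking water. Untrained mice stayed in the home cage (HC_water and HC_Caffeine, 4 mice each). Learning mice (MWM_water and MWM_Caffeine, 4 mice each) were trained for 3 days in the Morris water maze, a swimming task that tests spatial memory, and were killed 1 hour after the last trial. Training, swimming and the handling for them cannot be told apart, since the home cage mice were resting and had no maze training. The learning mice were also habituated to the pool on the days before training. The comparisons ask whether caffeine, learning, or caffeine during learning shifted the mRNA levels of these genes.

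DNA methylation is the addition of a methyl group to cytosine, mostly where a cytosine is followed by a guanine (CpG). Dnmt1 copies the methylation of the old strand onto the new one after replication, and Dnmt3a and Dnmt3b methylate unmarked sites. Tet enzymes oxidise the methyl group in steps and Tdg cuts out the more oxidised bases, which base excision repair then replaces with unmethylated cytosine. Mbd1 and Mbd2 bind methylated CpGs and recruit repressor complexes. In postmitotic neurons Dnmt3a and the Tet enzymes are known for turnover of methylation with activity and for their part in memory. No methylation was measured in these libraries, so all values here are mRNA levels.

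The promoter letters below are shown because CpG is the sequence that these proteins act on, and because the promoters of the genes differ widely in it. They are the 250 bases before a RefSeq start (GRCm38.p6), 5′ to 3′ on the gene's strand, less any base that is exonic in another transcript, with CpGs in capitals. Tet2, Dnmt3a and Dnmt3b are members, and Gadd45b is the gene with the largest learning response among the demethylation genes described further on.
Tet2, chr3:133544391-133544640, minus strand: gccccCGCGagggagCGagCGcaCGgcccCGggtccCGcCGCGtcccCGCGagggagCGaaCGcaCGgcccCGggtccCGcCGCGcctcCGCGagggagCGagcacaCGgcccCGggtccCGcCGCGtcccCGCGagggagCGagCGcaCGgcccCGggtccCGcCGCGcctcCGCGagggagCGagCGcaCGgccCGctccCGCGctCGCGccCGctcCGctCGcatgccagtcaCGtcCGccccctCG
Dnmt3a, chr12:3806730-3806979, plus strand: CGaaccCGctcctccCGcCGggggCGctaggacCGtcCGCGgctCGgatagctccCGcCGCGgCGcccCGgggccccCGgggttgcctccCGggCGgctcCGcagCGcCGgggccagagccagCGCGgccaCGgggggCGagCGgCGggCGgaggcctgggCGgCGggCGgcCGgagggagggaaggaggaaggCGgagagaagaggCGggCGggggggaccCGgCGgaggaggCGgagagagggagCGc
Dnmt3b, chr2:153649199-153649448, plus strand: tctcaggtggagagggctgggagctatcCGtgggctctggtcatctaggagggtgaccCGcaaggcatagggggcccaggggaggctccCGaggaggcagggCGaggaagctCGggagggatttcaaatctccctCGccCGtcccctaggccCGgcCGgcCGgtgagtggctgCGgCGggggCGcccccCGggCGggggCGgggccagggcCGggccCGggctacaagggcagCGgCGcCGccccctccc
Gadd45b, chr10:80929841-80930072, plus strand: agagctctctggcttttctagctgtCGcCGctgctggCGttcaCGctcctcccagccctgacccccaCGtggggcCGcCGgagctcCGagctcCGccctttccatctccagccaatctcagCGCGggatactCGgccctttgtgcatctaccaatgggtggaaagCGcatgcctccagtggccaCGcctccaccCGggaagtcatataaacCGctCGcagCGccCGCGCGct

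The Tet2 promoter held 51 CpGs, in a short block that recurs along the sequence, and 0.067% of 32851 mouse promoters of this length held as many. The Dnmt3a window shown held 38 CpGs (1.88% of promoters), Gadd45b 22 (14.8%) and Dnmt3b 21 (16.3%), against a median of 6. At the other RefSeq starts of Dnmt3a the windows held 40 (1.31%) and 15 (27.3%). The promoters of Mbd1 and Mbd2 were not examined. Among the other members not shown, Dnmt1 held 26, 7 and 2 CpGs at its RefSeq starts, Tdg 19, Tet3 17 and Tet1 15. These counts are over the whole 250 bases, including the exonic ones that the printed Gadd45b stretch leaves out. The Tet2 and Dnmt3a windows shown lie inside the gene spans of the GENCODE annotation, which gives both genes further upstream starts. The Dnmt3b window and the printed Gadd45b stretch lie before the gene. The whole Gadd45b window ends at 80930090, past the GENCODE start of the gene at 80930073. Both strands were searched for the letters TGACGTCA, TGANTCA and GCGGGGGCG, the core motifs of CREB, AP-1 and EGR factors. GCGGGGGCG occurred at 2 places in the Dnmt3b promoter and in none of the other 3 shown, and 2.57% of all promoters held it. TGACGTCA (1.55% of promoters) and TGANTCA (6.75%) were absent from these 4 windows, and TGACGTCA occurred at 1 place in the promoter of Tdg. These matches are a description of letters only.

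A pair of further sequences is shown because it bears on how well Tdg and Dnmt3b could be counted. Both are 50 bases long, the length of the reads, and each occurs letter for letter in the transcript of another gene, so a read from it has no unique place.
Tdg, exon 5, chr10:82644254-82644303, plus strand, also in the pseudogene Tdg-ps: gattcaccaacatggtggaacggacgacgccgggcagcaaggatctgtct
Dnmt3b, exon 17, chr2:153675760-153675809, plus strand, also in the gene Dnmt3c: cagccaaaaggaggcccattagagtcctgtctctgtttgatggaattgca

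Of all 50-base windows in the longest coding transcript of Tdg, 66.3% were shared with 5 other genes, and 85.8% of those in its coding sequence. For Dnmt3b 11.5% of windows, and 19.4% of coding windows, were shared with Dnmt3c. Tet1 shared 0.014% and the other 6 members shared no window. The authors kept uniquely aligned reads, so stretches shared with the pseudogenes of Tdg would give few counts, and the level of Tdg is a low estimate. Of the 2290 shared windows of Tdg, 318 matched Glt8d2, which overlaps Tdg at the same place, and reads from there can still align uniquely. Few reads were assigned to the near copies, with 41 counts for Tdg-ps and 54 for Dnmt3c over the 16 libraries. Reads from shared stretches are dropped for the copies too, so these counts are low estimates as well. The Tdg pseudogenes Gm5597 and AC122846.1 were not among the counted genes. Exons of Dnmt3a, Tet2 and Tdg also overlap a gene on the opposite strand (Dnmt3aos, Gm42567 and Glt8d2) over 0.799%, 0.255% and 6.83% of their exonic bases, and whether counting used the strand was not stated.

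The libraries held 23078094 to 49949281 counts. Markers of the labelled tissue were present in every library. The summed level of 4 neuronal markers was 7844 to 9657 CPM (counts scaled to a common library total after TMM normalization), with CA1 and dentate granule cell markers at 268 to 487 and 219 to 397 CPM. The first principal component (18.4% of the variance) put 8 of 8 home cage mice below 0 and 7 of 8 learning mice above 0, with learning water mouse 24 on the home cage side. Home cage caffeine mouse 17 lay farthest out, with 4.49% mitochondrial counts against 3.23% to 3.89% in the other libraries. Choroid plexus markers (5 of 5 detected in each library, none at 0) summed to 182 to 2282 CPM in home cage mice and 110 to 418 CPM in learning mice, highest in home cage water mouse 20. In bulk tissue, fewer cells of a type and less RNA per cell cannot be told apart.

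None of the 9 genes was called in any comparison, where called means a Benjamini-Hochberg adjusted p below 0.1 (edgeR, quasi-likelihood). In caffeine against water the share of all 17830 genes called was 0%, both in home cage and in learning mice, although 636 and 700 genes had an unadjusted p under 0.05 and DESeq2 called 19 and 6. In learning against home cage 0.97% of genes were called under water and 5.28% under caffeine, and 14.5% when both responses were averaged. Against this background 0 of 9 members were called. At an unadjusted p under 0.05, 0 of the 36 values of 9 members in 4 comparisons of 2 groups passed, where 3.57%, 3.93%, 11.8% and 18.8% of all genes did. DESeq2 also called 0 members. In all 36 the ranges of the 4 mice of one group and the 4 of the other overlapped, where 1.99%, 2.6%, 6.99% and 10.9% of all genes did not overlap. The test of the difference between the learning responses called 0 members and 0% of genes, and so did caffeine averaged over both conditions. There 648 and 725 genes had an unadjusted p under 0.05, and DESeq2 called 6 and 16 genes.

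**Figure D1:**
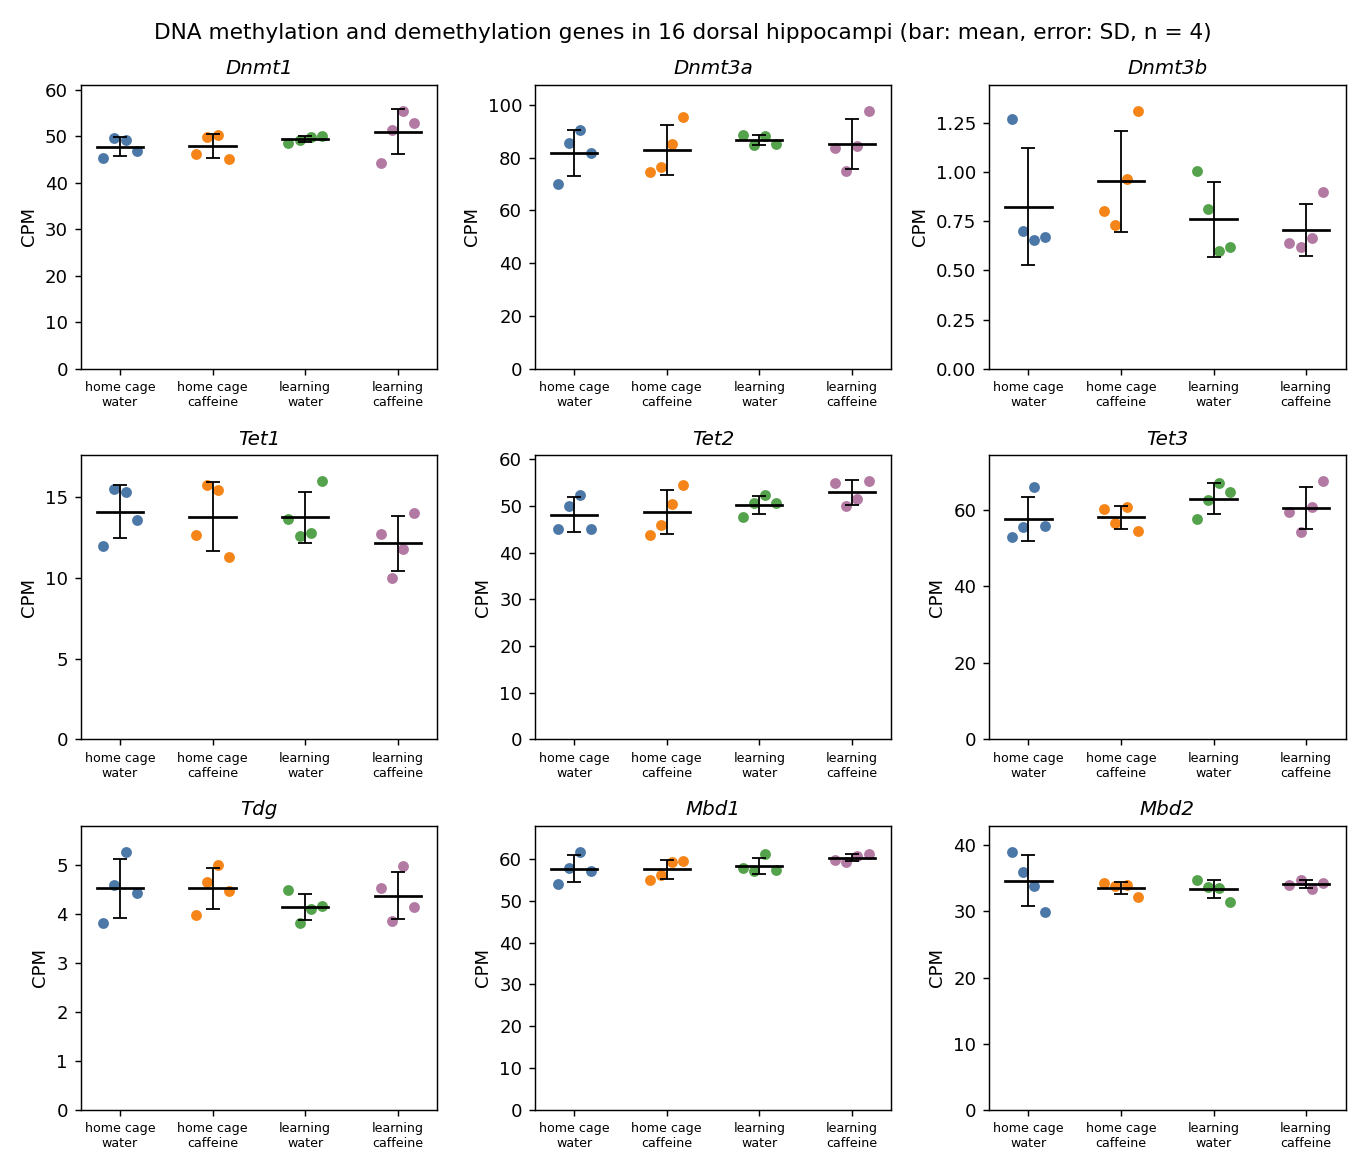
Levels of the 9 genes in CPM (y axes, from 0) in each mouse by group, as 1 point per mouse, with the group mean as a bar and the SD as the error bar (n = 4). Points of all 4 groups overlap for each gene, and the widest relative scatter is that of Dnmt3b, from 0.596 to 1.31 CPM.

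The intervals show which sizes of change the data leave in range. Over the 4 comparisons of 2 groups, the 95% confidence bound farthest from no change was 1.13-fold for Mbd1, 1.142-fold for Mbd2, 1.17-fold for Dnmt1, 1.20-fold for Tet2, 1.21-fold for Dnmt3a and 1.22-fold for Tet3. It was 1.30-fold for Tdg, 1.36-fold for Tet1 and 1.99-fold for Dnmt3b. For the 6 best measured members, changes beyond about these sizes lay outside the intervals.

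**Figure D2:**
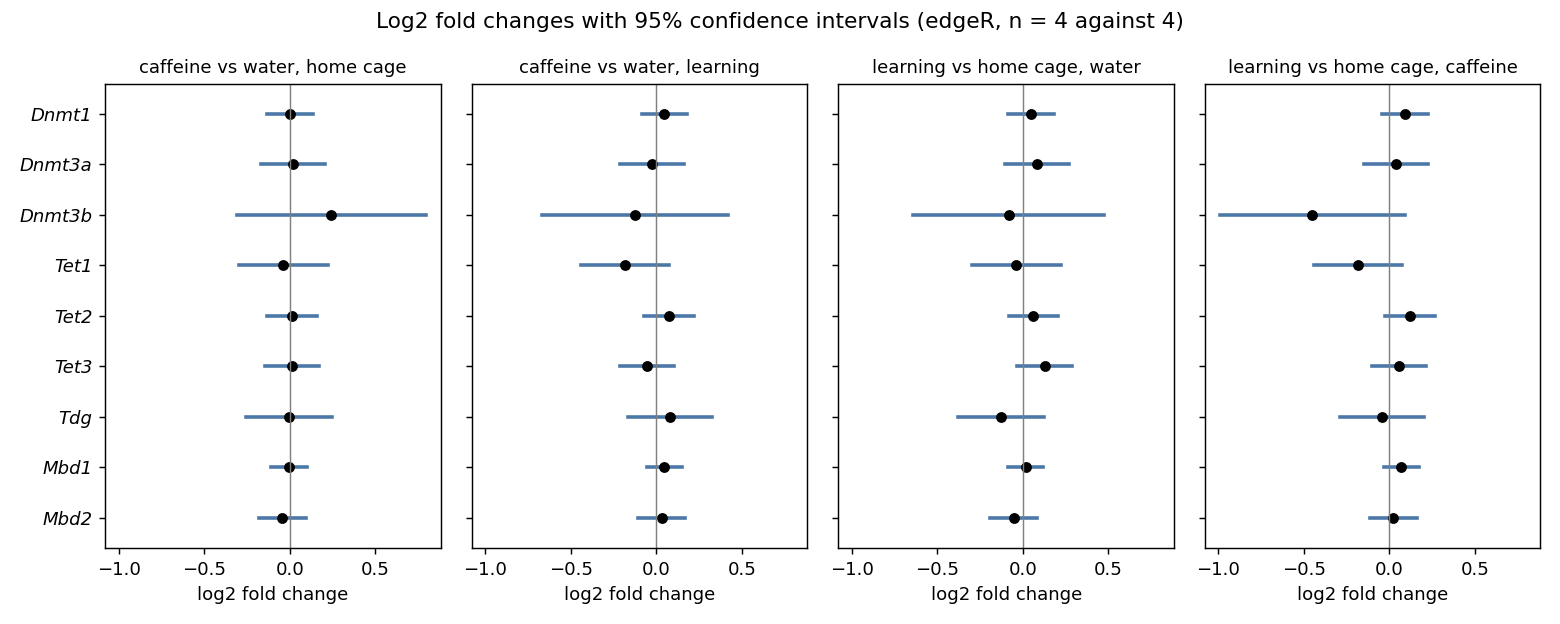
Log2 fold change (x axes) of each member in the 4 comparisons of 2 groups, with a point for the edgeR estimate and a line for its 95% confidence interval (n = 4 against 4). All 36 lines cross 0, and the longest reaches -0.99 for Dnmt3b in learning against home cage under caffeine.

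Among the methyltransferases, Dnmt3a (ENSMUSG00000020661, chromosome 12, 3806007 to 3914443, GRCm38) gave the most counts, 1761 to 4198 per library. In home cage water mice 6, 8, 11 and 20 it was at 69.9, 85.4, 90.3 and 81.6 CPM, and in home cage caffeine mice 2, 9, 14 and 17 at 74.7, 76.3, 85.1 and 95.5 CPM. Learning water mice 24, 33, 36 and 38 held 88.5, 84.8, 88.1 and 85.1 CPM, and learning caffeine mice 22, 27, 30 and 40 held 83.6, 74.8, 84.2 and 97.7 CPM. The learning water mice lay close together (mean 86.6 ± 1.96, SD, n = 4) inside the wider range of the other groups. The learning response was 0.08 ± 0.09 (log2 fold change ± SE, adjusted p = 0.747) under water and 0.04 ± 0.09 (adjusted p = 0.857) under caffeine. The caffeine effect was 0.02 ± 0.09 in home cage mice (adjusted p = 0.997) and -0.03 ± 0.09 in learning mice (adjusted p = 0.999). Counts per gene do not separate the transcripts that start at the 3 RefSeq starts of Dnmt3a.

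Dnmt1 (ENSMUSG00000004099, chromosome 9, 20907209 to 20959888) was the steadiest methyltransferase, with a coefficient of variation (CV, SD over mean) of 6.04% over the 16 mice against a median of 11.4% over all tested genes. Its levels were 45.4, 49.7, 49.3 and 46.9 CPM in home cage water mice and 46.2, 49.9, 50.4 and 45.3 CPM in home cage caffeine mice. Learning water mice were at 48.5, 49.2, 49.9 and 50.0 CPM, and learning caffeine mice at 44.2, 51.4, 55.5 and 52.9 CPM. The last group held both the lowest (mouse 22) and the highest value (mouse 30) of the 16. Under caffeine the learning response was 0.09 ± 0.06 (adjusted p = 0.451), and averaged over both treatments 0.07 ± 0.04 (adjusted p = 0.348). Without learning caffeine mouse 22 the averaged response was 0.12 with an adjusted p of 0.0830, past the threshold. It was not past it when any other single library was left out.

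Dnmt3b (ENSMUSG00000027478, chromosome 2, 153649450 to 153687730) was close to the lower limit of what was tested, with 17 to 47 counts per library. Home cage water mice held 1.27, 0.70, 0.65 and 0.67 CPM, and home cage caffeine mice 0.80, 0.73, 0.96 and 1.31 CPM. Learning water mice held 1.01, 0.81, 0.60 and 0.62 CPM, and learning caffeine mice 0.64, 0.62, 0.66 and 0.90 CPM. In home cage water and learning caffeine mice 1 mouse stood above 3 that lay close together, and in the other groups the mice were spread more evenly. The learning response under caffeine, -0.45 ± 0.26 (95% confidence interval -0.99 to 0.09, unadjusted p = 0.0969, adjusted p = 0.354), was the largest estimate among the members and did not pass. Under water it was -0.08 ± 0.27 (adjusted p = 0.924), and the difference between both responses was -0.37 ± 0.37 (unadjusted p = 0.333). With 1 library left out, the response under caffeine ran from -0.57 to -0.25. Home cage caffeine mouse 17 held the highest level of the 16 mice. Caffeine against water in home cage mice gave 0.24 ± 0.26 (adjusted p = 0.997), or 0.05 to 0.51 with 1 library left out.

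Of the dioxygenases, Tet3 (ENSMUSG00000034832, chromosome 6, 83362373 to 83459084) was at 52.8, 55.6, 65.8 and 55.7 CPM in home cage water mice and 57.4, 62.4, 66.9 and 64.5 CPM in learning water mice. Under caffeine it was at 60.2, 56.4, 60.8 and 54.4 CPM in home cage mice and 59.3, 54.1, 60.8 and 67.4 CPM in learning mice. Under water all 4 learning mice stood above 3 of 4 home cage mice, but home cage mouse 11 lay above all learning mice except mouse 36. The response was 0.13 ± 0.08 under water (adjusted p = 0.531) and 0.06 ± 0.08 under caffeine (adjusted p = 0.711). Averaged, it was 0.09 ± 0.05 (unadjusted p = 0.0995, adjusted p = 0.288).

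Tet2 (ENSMUSG00000040943, chromosome 3, 133463679 to 133545139) had the smallest unadjusted p of the 9 members in the averaged learning response, 0.0798 (log2 fold change 0.09 ± 0.05, adjusted p = 0.256). Its levels were 45.1, 50.1, 52.5 and 45.1 CPM in home cage water mice and 47.7, 50.6, 52.3 and 50.6 CPM in learning water mice. In home cage caffeine mice they were 43.9, 46.0, 50.5 and 54.4 CPM, and in learning caffeine mice 54.9, 49.9, 51.6 and 55.3 CPM. Home cage caffeine mouse 17, the library that stood apart, held the highest home cage value. Without that mouse and home cage water mouse 20 together, a choice made after seeing the data, the response under caffeine was 0.18 (unadjusted p = 0.0138, adjusted p = 0.205), against 0.12 ± 0.07 (unadjusted p = 0.1002, adjusted p = 0.359) with all libraries.

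Tet1 (ENSMUSG00000047146, chromosome 10, 62804570 to 62908996) was the least abundant Tet gene, at 302 to 597 counts per library. It stood at 12.0, 15.5, 15.3 and 13.6 CPM in home cage water mice and 13.7, 12.6, 12.8 and 15.99 CPM in learning water mice. In home cage caffeine mice it stood at 12.7, 15.8, 15.4 and 11.3 CPM, and in learning caffeine mice at 12.7, 10.0, 11.8 and 13.996 CPM. The learning caffeine group had the lowest mean (12.1 ± 1.68 CPM, SD, n = 4, against 13.8 ± 2.16 CPM in home cage caffeine mice), with overlapping ranges. The learning response under caffeine was -0.18 ± 0.12 (adjusted p = 0.439) and under water -0.04 ± 0.12 (adjusted p = 0.923). With offsets that remove each library's trend with transcript length and GC content, the response under caffeine was -0.30 with an adjusted p of 0.0506, past the threshold, and the averaged response -0.21 with an adjusted p of 0.0284. With these offsets 1 of 9 members was therefore called in either case, beside 943 and 2143 of all 17830 genes. Caffeine against water gave -0.04 ± 0.12 in home cage mice and -0.18 ± 0.12 in learning mice (adjusted p = 0.997 and 0.999).

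The remaining members were the glycosylase Tdg and the readers Mbd1 and Mbd2. Tdg (ENSMUSG00000034674, chromosome 10, 82629828 to 82650799) ranged from 3.81 to 5.27 CPM over the 16 mice, and both the lowest (mouse 6) and the highest (mouse 11) were home cage water mice. Its largest estimate was -0.13 ± 0.12 in learning against home cage under water (adjusted p = 0.698). Mbd1 (ENSMUSG00000024561, chromosome 18, 74267605 to 74282732) was the steadiest member, at 53.9 to 61.7 CPM. Its CV of 3.93% was at percentile 3.12 of the CVs of the tested genes. The 4 learning caffeine mice lay between 59.4 and 61.2 CPM, at the upper end of the range of home cage caffeine mice (55.0 to 59.5 CPM), with which they overlapped, and the response was 0.07 ± 0.05 (adjusted p = 0.462). Mbd2 (ENSMUSG00000024513, chromosome 18, 70568189 to 70626131) ranged from 29.9 to 39.0 CPM, again with both extremes in home cage water mice (mice 20 and 6), and was at 32.2 to 34.8 CPM in the 8 caffeine mice. Its largest estimate was -0.05 ± 0.07 in learning against home cage under water (adjusted p = 0.782).

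Levels of different genes were compared per kilobase (kb) of transcript, which corrects for longer genes giving more reads. As CPM per kb of all annotated exons, the order was Mbd2 (10.6 ± 0.61, SD, n = 16), Mbd1 (8.72 ± 0.34), Dnmt1 (6.65 ± 0.40), Dnmt3a (5.05 ± 0.45), Tet3 (3.57 ± 0.28), Tet2 (2.97 ± 0.21), Tet1 (0.87 ± 0.11), Tdg (0.82 ± 0.08) and Dnmt3b (0.16 ± 0.04). Neighbours in this order did not overlap over the 16 mice, apart from Tet3 (lowest 3.16) with Tet2 (highest 3.28), and Tet1 with Tdg. The Tdg level is a low estimate for the reason given above. Against all tested genes these levels ran from percentile 74.7 for Mbd2 to percentile 6.77 for Dnmt3b.

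The order depended on the length used. Per kb of the mean coding transcript Dnmt3a moved from rank 4 to rank 1 (35.5 CPM per kb) and Dnmt1 from rank 3 to rank 6 (8.90 CPM per kb), since the mean coding transcript of Dnmt3a is 2367 bases long, against 16642 bases of exons. Dnmt3b was last under all 3 choices of length. As shares of the family sum per kb of exons, Tet3 made up 48.2% ± 1.62 (SD, n = 16), Tet2 40.1% ± 2.03 and Tet1 11.7% ± 1.42 of the Tet mRNA. Dnmt1 made up 56.1% ± 2.36, Dnmt3a 42.6% ± 2.28 and Dnmt3b 1.34% ± 0.40 of the methyltransferase mRNA. With the longest transcript as the length, Dnmt3a (50.4%) was above Dnmt1 (48.5%), and Tet3 (46.1%) and Tet2 (46.0%) were close to equal, with Tet1 at 7.90%. Per kb of the mean coding transcript Tet2 (10.48 CPM per kb) ranked above Tet3 (10.33). The Tet1 share was 12.6% ± 0.84 in home cage water and 12.3% ± 1.80 in home cage caffeine mice (SD, n = 4). It was 11.7% ± 1.28 in learning water and 10.4% ± 0.70 in learning caffeine mice. Learning caffeine mice (highest 11.01%) overlapped home cage caffeine mice (lowest 10.2%) and learning water mice (lowest 10.4%). They lay below home cage water mice (lowest 11.7%), which differed from them in both treatment and training. That pair of groups was not among the comparisons, and how many of all genes separate between them was not counted.

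**Figure D3:**
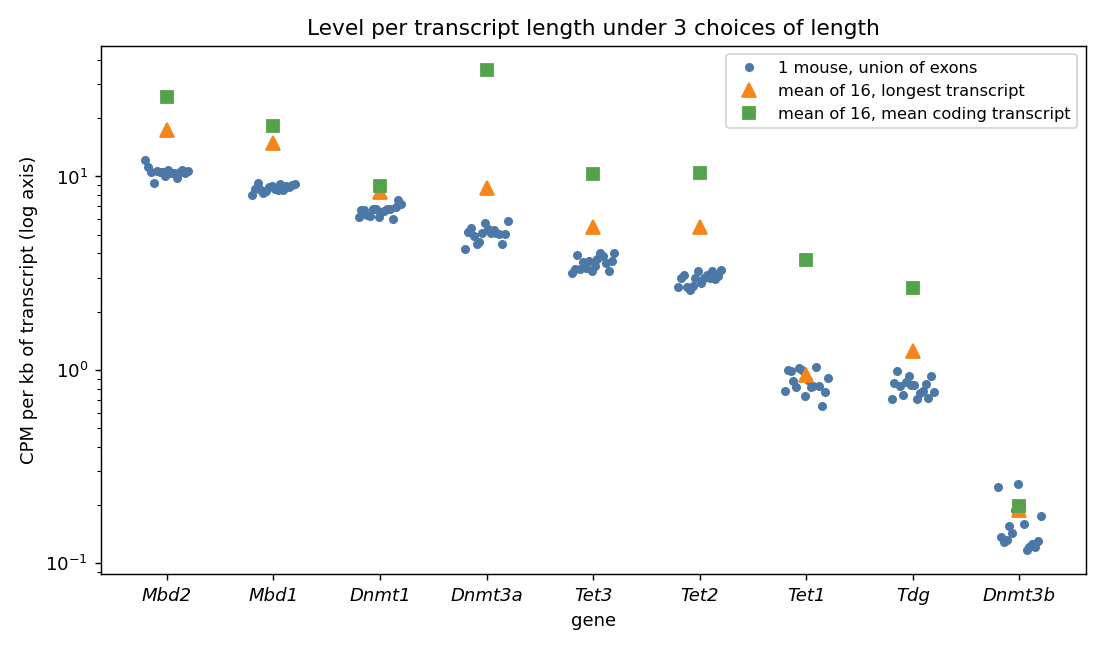
CPM per kb of transcript (log y axis) of the 9 members in order of level, with 1 point per mouse for the union of exons (n = 16) and the mean of 16 mice under 2 other lengths. Members span from 10.6 (Mbd2) to 0.16 (Dnmt3b) CPM per kb, and Dnmt3a shifts most with the choice of length, to 35.5.

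Several other genes of the pathway, from lists chosen with earlier results of these data known, were called in learning against home cage. Whether they differ from the 9 members in this was not tested. Of 12 partners and readers, 18 tested genes of demethylation and base excision repair (of 22 listed) and 14 tested genes of methyl donor and cofactor supply (of 15), 2 of 44 rose under water and 4 of 44 under caffeine, and none fell. With DESeq2 these counts were 4 and 6, with 1 lower in each, beside 427 and 1561 of 33352 genes with a p, in either direction. DESeq2 can leave genes of low counts without an adjusted p, so fewer genes may have been open to a call. Fits on the 8 libraries of each comparison gave 3 of 44 and 2 of 43, beside 85 of 17050 and 617 of 17216 genes. Under water the count was 0 without learning water mouse 36, 1 without learning water mouse 33 or 38 or home cage water mouse 11 or 20, and 4 without home cage caffeine mouse 2 or 17. Under caffeine it was 2 without home cage caffeine mouse 17 or learning caffeine mouse 22. It was 5 without home cage water mouse 8 and 6 without home cage caffeine mouse 14. Without learning water mouse 38, 4 were called higher and 1 lower under caffeine. With length and GC offsets 3 rose under water and 6 under caffeine, beside 214 and 943 of all 17830 genes in either direction. In the fits with 1 library left out, 37 to 312 of all genes were called under water and 382 to 1231 under caffeine. In the edgeR fit of all 16 libraries the share of all genes called higher was 0.639% under water and 3.16% under caffeine. The share called lower was 0.331% and 2.13%. Neither caffeine comparison nor the difference of the responses called any of the 44. Apobec2, Neil3, Dppa3 and Bhmt were among the listed genes with too few counts to be tested. The median log2 fold change of the lists in the averaged response, 0.06 for partners and readers, 0.01 for demethylation and repair and 0.01 for donor supply, was close to the median of all genes tested (-0.01), and that of the 9 members was 0.04.

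Gadd45b (ENSMUSG00000015312, chromosome 10, 80930073 to 80932204) is an activity-induced gene linked to removal of methylation in neurons, and its promoter is printed above. It was at 8.06, 7.77, 8.30 and 8.41 CPM in home cage water mice and at 11.3, 12.3, 12.3 and 11.2 CPM in learning water mice. All 4 learning mice stood above all 4 home cage mice, and the rise was 0.53 ± 0.10 (adjusted p = 0.0275). Under caffeine the home cage mice were at 10.9, 7.80, 7.83 and 9.21 CPM and the learning mice at 10.6, 10.0, 10.8 and 12.2 CPM. Home cage caffeine mouse 2 lay within the learning range, and the estimate was 0.28 ± 0.10 (adjusted p = 0.136), or 0.41 without that mouse (adjusted p = 0.0403). DESeq2 also called it under caffeine (0.29, adjusted p = 0.0748), as did the fit with length and GC offsets (0.41, adjusted p = 0.0426). The difference between the responses was -0.25 ± 0.14 (unadjusted p = 0.0927, adjusted p = 0.99997). The rise under water was not called without learning water mouse 36 (0.51, adjusted p = 0.111), and was called without each of the other libraries.

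Mtrr (ENSMUSG00000034617, chromosome 13, 68560780 to 68582149) encodes methionine synthase reductase, which reactivates the enzyme that regenerates methionine. It was at 13.3, 13.99, 13.4 and 13.5 CPM in home cage water mice and 15.5, 18.6, 19.1 and 17.6 CPM in learning water mice. Under caffeine it was at 12.3, 15.9, 13.0 and 12.2 CPM in home cage mice and 17.6, 17.4, 17.6 and 18.6 CPM in learning mice. The groups did not overlap under either treatment, and the rise was 0.38 ± 0.08 under water (adjusted p = 0.0563) and 0.42 ± 0.08 under caffeine (adjusted p = 0.0139). Under caffeine it stayed called without any 1 of the 16 libraries. Under water it was not called without home cage water mouse 11 (0.40, adjusted p = 0.134) or 20 (0.38, 0.151), or without learning water mouse 33 (0.36, 0.157), 36 (0.35, 0.182) or 38 (0.39, 0.1002), where each second value is the adjusted p.

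Mat2a (ENSMUSG00000053907, chromosome 6, 72432799 to 72439558) encodes the enzyme that makes S-adenosylmethionine, the methyl donor of all 3 methyltransferases. Under caffeine it rose from 153, 151, 150 and 141 CPM in home cage mice to 172, 164, 174 and 211 CPM in learning mice, by 0.28 ± 0.06 (adjusted p = 0.0333). Under water it was at 164, 158, 156 and 152 CPM in home cage mice and 199, 180, 185 and 187 CPM in learning mice. The groups did not overlap under water either, and the estimate of 0.25 ± 0.06 (adjusted p = 0.104) lay just outside the threshold. DESeq2 called it (adjusted p = 0.0224). Of its 50-base windows 11.4% were shared with other genes, among them the pseudogene Gm9523 and Particl, which overlaps it on the opposite strand.

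Parp1 (ENSMUSG00000026496, chromosome 1, 180568924 to 180601254), which binds DNA strand breaks during repair, rose under caffeine from 131, 118, 119 and 105 CPM to 149, 134, 138 and 139 CPM, by 0.24 ± 0.06 (adjusted p = 0.0414). Under water it was at 117 to 123 CPM in home cage and 129 to 148 CPM in learning mice, with an estimate of 0.22 ± 0.06 (adjusted p = 0.129, or 0.0419 by DESeq2). The ranges were separate in both cases. The call under caffeine was lost without home cage caffeine mouse 17 (0.19, adjusted p = 0.105) and without learning caffeine mouse 22 (0.23, adjusted p = 0.105), and also in a fit on the 8 caffeine libraries alone (0.24, adjusted p = 0.103).

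Uhrf2 (ENSMUSG00000024817, chromosome 19, 30030513 to 30093722), which binds modified CpGs, was the only called gene among the partners and readers. Under caffeine it was at 50.9, 58.2, 57.3 and 46.3 CPM in home cage mice and 60.0, 58.7, 66.3 and 68.2 CPM in learning mice, a rise of 0.25 ± 0.08 (adjusted p = 0.0928). Under water the estimate was 0.20 ± 0.08 (adjusted p = 0.318). The call under caffeine held in 9 of 16 fits with 1 library left out. It was lost without home cage caffeine mouse 2 (0.25, adjusted p = 0.157) or 17 (0.20, 0.230), learning water mouse 33 (0.26, 0.108) or 36 (0.26, 0.108), or learning caffeine mouse 22 (0.30, 0.1001), 30 (0.23, 0.217) or 40 (0.22, 0.218), where each second value is the adjusted p. In a fit on the 8 caffeine libraries alone it was not called (adjusted p = 0.142).

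**Figure D4:**
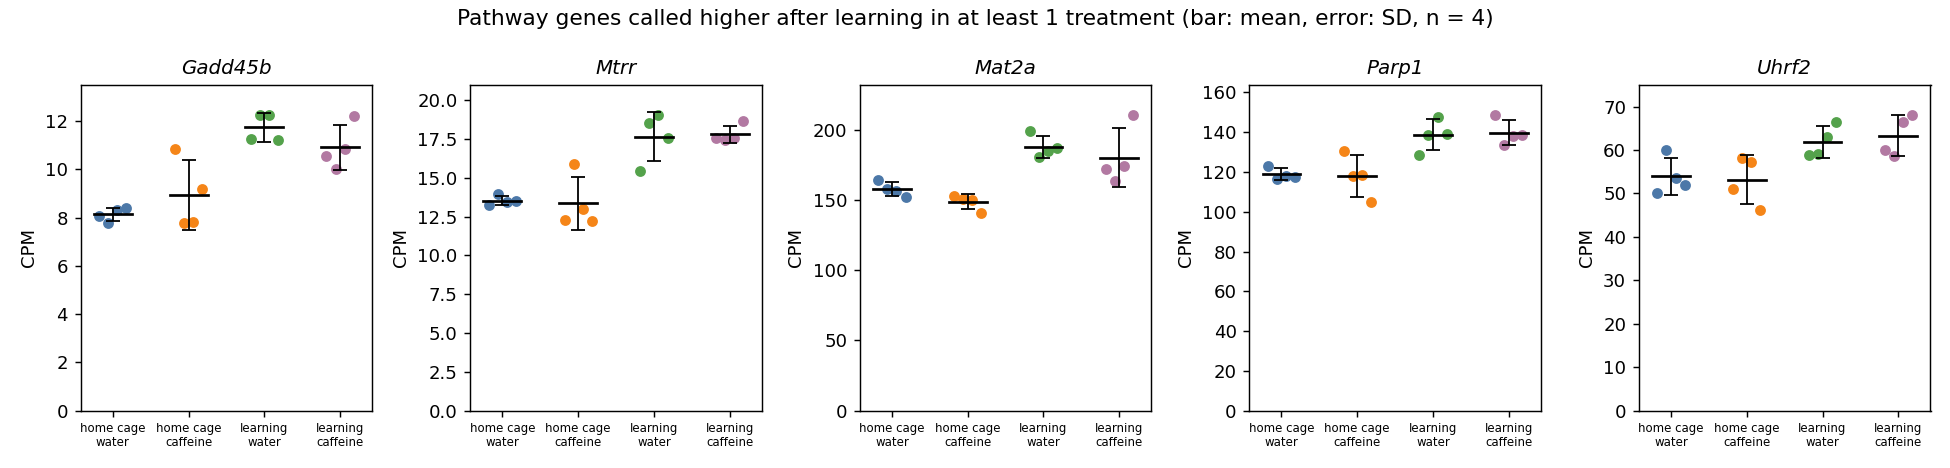
Levels in CPM (y axes, from 0) of the 5 pathway genes called higher after learning in at least 1 treatment, as 1 point per mouse, with the group mean as a bar and the SD as the error bar (n = 4). Gadd45b means are 8.14 and 11.8 CPM in home cage and learning water mice, and Mtrr means are 13.4 and 17.8 CPM in home cage and learning caffeine mice.

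When the responses under water and caffeine were averaged, 11 of the 44 pathway genes were called, 7 higher and 4 lower, where 7.81% of all genes were called higher and 6.71% lower. Besides Gadd45b (0.41 ± 0.07), Mtrr (0.40 ± 0.06), Mat2a (0.26 ± 0.05), Parp1 (0.23 ± 0.04) and Uhrf2 (0.23 ± 0.05), Mtr, the methionine synthase that Mtrr reactivates, rose by 0.20 ± 0.06 (adjusted p = 0.0403). Polb, the polymerase that fills the gap in base excision repair, rose by 0.12 ± 0.04 (adjusted p = 0.0704). These 7 rises stayed called without any 1 of the 16 libraries, apart from Polb without learning caffeine mouse 30 (0.12, adjusted p = 0.103). Polb was also not called when every gene with a count was tested (0.13, adjusted p = 0.122).

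The 4 that were called lower were Apobec1, a cytidine deaminase known for editing Apob mRNA (-0.37 ± 0.13, adjusted p = 0.0775), Cxxc4, a CpG-binding protein that interacts with Tet2 (-0.23 ± 0.08, adjusted p = 0.0719), Apex1, the endonuclease that cuts abasic sites (-0.13 ± 0.05, adjusted p = 0.0901), and Mat2b, the regulatory subunit of the Mat2a enzyme (-0.10 ± 0.04, adjusted p = 0.0777). With 1 library left out, Cxxc4 was called in 9 of 16 fits (adjusted p up to 0.185, without home cage water mouse 6) and Apobec1 in 7 (up to 0.157, without home cage water mouse 20). Mat2b was called in 3, those without home cage caffeine mouse 17, learning water mouse 36 or learning caffeine mouse 40, and Apex1 in 2, those without learning water mouse 36 or learning caffeine mouse 40. Without the others the adjusted p ran up to 0.240 for Mat2b (home cage caffeine mouse 2) and 0.259 for Apex1 (home cage water mouse 6). With length and GC offsets Apex1 was at -0.04 (adjusted p = 0.691), Apobec1 at -0.34 (adjusted p = 0.110) and Mat2b at -0.08 (adjusted p = 0.157), none of them called, while Cxxc4 was at -0.32 (adjusted p = 0.0465). With DESeq2's size factors Apex1 and Mat2b were not called (adjusted p = 0.106 and 0.101). Of the 50-base windows of Apex1, 65.6% were shared with Pip4p1, which overlaps it on the opposite strand. The most negative estimates in the other 2 lists did not pass. They were those of Uhrf1, which brings Dnmt1 to replicated DNA (-0.25 ± 0.21, adjusted p = 0.490, at 10 to 46 counts per library), and Gnmt, a glycine methyltransferase (-0.21 ± 0.22, adjusted p = 0.580, at 9 to 35 counts).

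**Figure D5:**
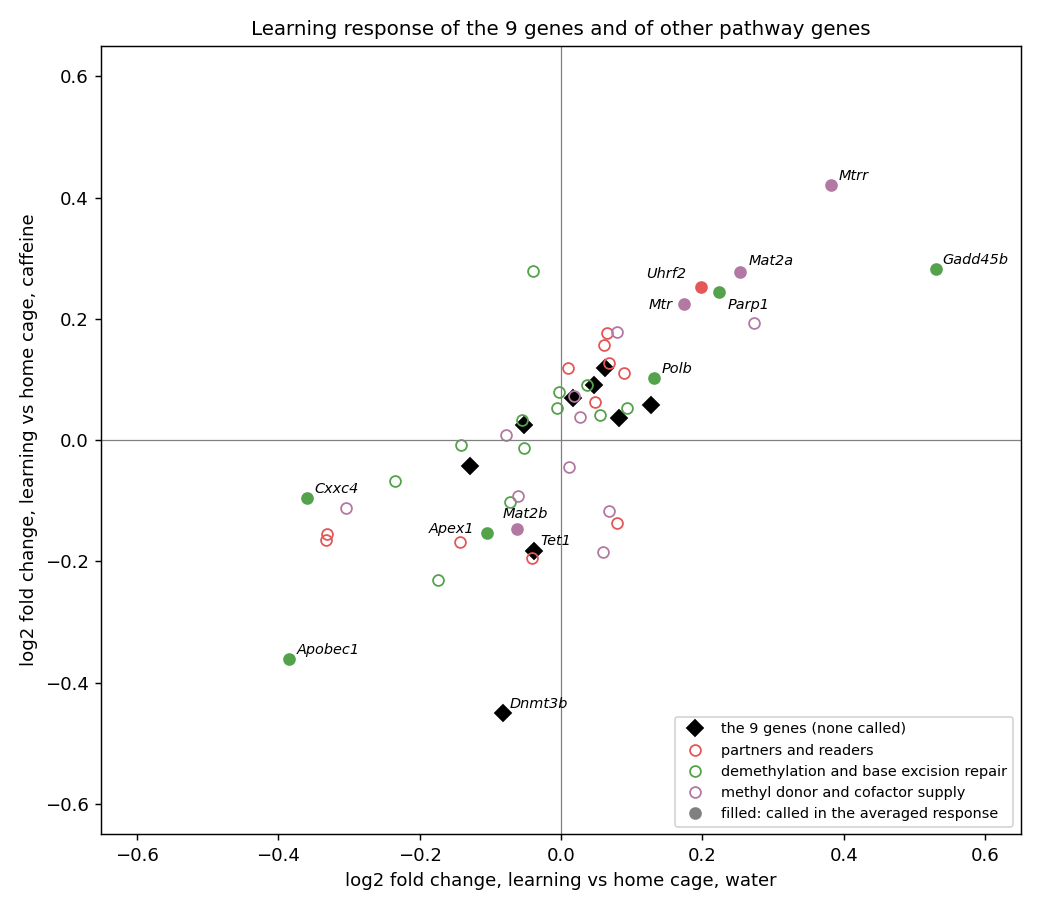
Learning response (log2 fold change) in water mice (x axis) and in caffeine mice (y axis) for the 9 members (diamonds, none called) and 44 other pathway genes (circles by list, filled where called in the average of both responses). All 9 members lie within 0.13 of 0 under water, and Dnmt3b is the lowest gene under caffeine at -0.45.

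Depth, the mitochondrial share and some marker sums differed with learning too. Home cage libraries held 23078094 to 41841785 counts and learning libraries 30861776 to 49949281. Choroid plexus markers summed to 292 to 2282 CPM in home cage and 155 to 418 CPM in learning water mice (medians 1003 and 297). Under caffeine they summed to 182 to 476 and 110 to 194 CPM (medians 234 and 157). Within the home cage mice the choroid plexus sums therefore differed between water and caffeine too. Mitochondrial counts were 3.55% to 3.89% in home cage and 3.29% to 3.44% in learning water mice, with no overlap, and 3.46% to 4.49% and 3.23% to 3.59% under caffeine. Median sums of the CA1 markers were 407 CPM in home cage and 338 CPM in learning mice under water, and 425 and 363 CPM under caffeine. Oligodendrocyte markers summed to 4799 to 6905 CPM in home cage and 4752 to 11141 CPM in learning water mice, highest in mouse 24, and to 4897 to 8315 and 4620 to 6471 CPM under caffeine. The part of these in the results was not tested. With home cage caffeine mouse 17 and home cage water mouse 20 left out together, the averaged rises of Gadd45b, Mtrr, Mat2a, Parp1 and Uhrf2 were still called, while those of Mtr (0.17, adjusted p = 0.136) and Polb (0.12, adjusted p = 0.128) were not. In that fit Apobec1 (-0.33, adjusted p = 0.204), Cxxc4 (-0.20, 0.140) and Apex1 (-0.14, 0.136) were not called either, and 0 of the 9 members were. Of the 44 pathway genes 1 was called higher under water (Gadd45b), 2 under caffeine (Mtrr and Mat2a), and 5 higher and 1 lower in the average. Of all 17930 genes tested there, 64, 408 and 1368 were called in these comparisons, in either direction.

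Genes whose levels followed those of a member across the 16 mice are given as a description, without a test. They were sought for Tet2, which had the smallest unadjusted p in the averaged learning response, and for Tet1, which had the smallest in the averaged caffeine response, among 13327 genes. The log2 CPM of Tet2 was most like that of Trank1 (Pearson's r = 0.876), Ryr1 (0.874), Mbd1 (0.845), Zfp445 (0.838) and Usp48 (0.838). The log2 CPM of Tet1 was most like that of Ssr1 (0.849), Dpy19l4 (0.845), Prps2 (0.806), Cdyl (0.803) and Onecut2 (0.803). Mbd1 is itself one of the 9, and the other members had r values with Tet2 from -0.15 upwards. All points share their libraries, depth and group structure.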

How the data were processed

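The authors made stranded poly(A) RNA libraries from 16 dorsal hippocampi, sequenced 50-base single-end reads, aligned them to mm10 with STAR and Bowtie 2, and counted uniquely aligned reads per Ensembl release 90 gene with HTSeq-count 0.6.1p1 in union mode. The authors deposited raw counts, without normalization or pooling, and per the labels base calling used bcl2fastq 2.17.1.14. All value columns were used. The strand setting of the counting is not given in the sources used here.

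From these counts, edgeR 4.0.16 in R 4.3.3 was run with TMM scaling, filterByExpr by group (17830 of 35328 genes) and 1 quasi-likelihood fit of all 16 libraries with the 4 group means. Genes with a Benjamini-Hochberg adjusted p under 0.1 were called. Library totals of 23078094 to 49949281 counts left a gene's log2 fold change between 2 groups with a standard error of 0.10 (median). Without molecular identifiers, reads are not independent molecules. Replicates were separate mice, and their counts differed by more than sampling noise (chi-square per degree of freedom of 5.49 to 32.2 over 24 pairs). Positions and lengths came from GENCODE M21 (GRCm38), which matched 35247 genes and left 81 without a match, and promoters from RefSeq (GRCm38.p6). The scripts were tested on simulated counts.

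The members and lists were chosen with earlier results of these data known. Named were the 9 members, every listed pathway gene called in any comparison, the largest positive and most negative averaged learning response in each list, and the 5 genes of average log2 CPM of at least 1 most correlated (log2 CPM with a prior count of 2) with the members of smallest p in the averaged learning and caffeine responses. Alternatives were DESeq2 1.42.0, its size factors, a fit on 8 libraries, other filters, a threshold of 0.05, length and GC offsets, each library left out, and 2 libraries left out together, the last chosen after seeing the data.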

Additional observations from a re-analysis of the deposited data

Results flagged for a closer look

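In 5 of 80 combinations of a named gene and a group, 1 mouse lay far from the other 3 (Dixon's test on the group's 4 values), and chance gives about 1 in 20. Of the 36 combinations of a member and a group, 2 were of this kind, both of Dnmt3b. Home cage water mouse 6 held 1.27 CPM of Dnmt3b, from 32 counts, with the next mouse at 0.70 CPM. Learning caffeine mouse 40 held 0.90 CPM of Dnmt3b, from 33 counts, with the next mouse at 0.66 CPM. Both are the highest mouse of their group at counts where a few reads move the level.

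The other 3 were pathway genes. Learning water mouse 24 held 50.2 CPM of Polb, against 47.3 to 47.6 CPM in the rest of its group. Home cage caffeine mouse 17, which stood apart on the first principal component, held 26.3 CPM of Cxxc4, with the next mouse at 21.3 CPM. Learning caffeine mouse 40 held 18.6 CPM of Mtrr, with the next mouse at 17.6 CPM.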

How the results depend on the processing

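The count of members called was 0 in all 7 comparisons with all alternatives, with these exceptions. Length and GC offsets gave 1 (Tet1) in learning against home cage under caffeine and 1 (Tet1) in the averaged learning response. Leaving out 1 library gave 0 to 1 in the averaged learning response, with 1 (Dnmt1) without learning caffeine mouse 22, and 0 to 0 in the others. Of 1485 member fold changes under alternatives, 3 passed the threshold and 86 changed sign, none of them called. The cause was not tested. The number of all genes called with 1 library left out ran from 37 to 312 under water (173 with all), 382 to 1231 under caffeine (942) and 1783 to 3191 averaged (2590). Caffeine against water went from 0 to 33 genes in home cage mice and from 0 to 24 averaged without home cage water mouse 6, and to 1 at most in learning mice and in the difference of the responses. In learning against home cage, DESeq2 called 427 genes under water, 1561 under caffeine and 2990 averaged. A fit on the 8 libraries of the comparison called 85 under water and 617 under caffeine. Without home cage caffeine mouse 17 and home cage water mouse 20 the learning counts, in the same order, were 64, 408 and 1368. At a threshold of 0.05 they were 70, 449 and 1384, and when every gene with a count above 0 was tested 290, 793 and 2075. Tested that way, caffeine against water called 34 genes in home cage mice, 8 in learning mice and 36 averaged, and the difference of the responses 9, against 0 in each as reported. DESeq2's size factors moved the median of all genes by 0.008 at most. Counts of 17 to 47 per library limited Dnmt3b. No paired analysis was possible because the replicate numbers are animal numbers that no 2 groups share.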
